A study of Rattus norvegicus with 4 samples.

Results

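MicroRNA levels of the lateral prostate were compared between TRAP rats given OBP-801 and TRAP rats given saline. The comparison rests on 2 of the 4 arrays of the study, those titled for the lateral prostate, with 1 array for OBP-801 and 1 for saline. The arrays hold 679 probes for rat miRNAs with 1 spot each, and a miRNA counted as detected where the median of its spot in the red channel lay above the mean plus 2 SD of the blank spots of that array. Of the 679 probes, 329 were detected after OBP-801 and 290 after saline, and the 271 detected on both lateral arrays are those compared below. With no replicate array, the data hold no estimate of the spread between animals, and every difference is given without a test.

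OBP-801 is an inhibitor of histone deacetylases, enzymes that remove acetyl groups from histones and other proteins. The OBP-801 group consisted of male TRAP rats, 6 weeks old at the start, which were injected intravenously 2 times a week for 8 weeks, and the saline group of male TRAP rats of the same age injected with saline on the same schedule. The dose was 1 mg/kg by the treatment protocol, whereas the agent's own label names 1 mg and no body weight. Both groups were fed a control diet and both carry the transgene. TRAP rats express the SV40 T antigens from the probasin promoter, which is active in prostate epithelium under androgen control, and develop prostate cancer. No rat without the transgene was among the samples, so the values describe a drug in a tumour-forming prostate and not in a normal one. How many rats stand behind an array, and whether their RNA was pooled, is not stated in the labels.

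MicroRNAs are short RNAs that guide Argonaute proteins to messenger RNAs, mostly through pairing of their seed, bases 2 to 8 counted from the 5′ end. They are cut from hairpin precursors, which often lie in clusters or within other genes, and either arm of a hairpin can give a mature miRNA. A star in the name marks the arm that was taken as the minor one when the array was designed. In prostate, the miR-200 family is typical of epithelium, miR-143 and miR-145 of smooth muscle, and let-7 is associated with differentiated cells.

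Of the 15 miRNAs that differed by at least 1.5-fold, 13 had a mature sequence in the RefSeq table, which belongs to the assembly GRCr8. These sequences are shown because the comparison turns on them, 5′ to 3′, with the seed in capitals. The first group, those higher after OBP-801, comprised 6 sequences with 6 different seeds.
miR-145: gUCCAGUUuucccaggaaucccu
miR-3584-5p: gGGAGGAGuccaggaggc
miR-143*: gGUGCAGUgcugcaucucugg
let-7a: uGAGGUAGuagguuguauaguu
miR-652*: aCAACCCUaggagggggugccau
miR-214: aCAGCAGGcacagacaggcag

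The second group, those lower after OBP-801, comprised 7 sequences. The seed of let-7f is the seed of let-7a, so that a single seed occurred in both groups, while no other seed was shared among the 13.
miR-182: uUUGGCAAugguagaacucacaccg
miR-16: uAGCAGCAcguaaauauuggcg
let-7f: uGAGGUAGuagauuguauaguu
miR-107: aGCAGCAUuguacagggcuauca
miR-7a: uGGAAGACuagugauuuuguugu
miR-93: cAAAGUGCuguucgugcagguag
miR-142-5p: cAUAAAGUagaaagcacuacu

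A further 4 sequences are shown because they are near copies of called miRNAs whose differences were unlike theirs. They are let-7c and let-7d beside let-7a, miR-103 beside miR-107, and miR-195 beside miR-16.
let-7c: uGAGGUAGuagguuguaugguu
let-7d: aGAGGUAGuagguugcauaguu
miR-103: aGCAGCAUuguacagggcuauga
miR-195: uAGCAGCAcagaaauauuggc

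The lateral OBP-801 array was the brighter of the pair. The 271 miRNAs had a median signal of 234.6 after OBP-801 and 201.4 after saline, in arbitrary intensity units, and 215 of them had the higher signal after OBP-801, with a median log2 ratio of 0.19. The blank spots averaged 109.4 on the OBP-801 array and 104.1 on the saline array, and the detection limits were 129.1 and 124.6. The first spike control averaged 37427 on the OBP-801 array and 34570 on the saline array over 8 spots, and its spots had SDs of 0.16 and 0.20 on the log2 scale. After quantile normalization, which gives all arrays the same distribution, the median difference was 0 by construction, and the log2 values of both lateral arrays correlated with Pearson's r = 0.987 across the 271 miRNAs, which are not independent replicates. Both OBP-801 arrays of the study lay in position 2 of their slides and both saline arrays in position 1, and these 2 factors cannot be told apart. In whole tissue, fewer cells of a type and less of a miRNA per cell cannot be told apart either.

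Differences below are normalized log2 values of OBP-801 minus saline, so that a positive value means a higher level after OBP-801. A difference of at least 1.5-fold was found for 15 of 271 miRNAs (5.54%), of which 7 were higher after OBP-801 (2.58%) and 8 lower (2.95%). At 2-fold the counts were 1 higher (0.369%), miR-145, and 1 lower (0.369%), miR-182. At 1.2-fold, 41 were higher (15.1%) and 40 lower (14.8%). By sign alone, 127 of the 271 were above 0, 131 below 0 and 13 at exactly 0. Differences ranged from -1.31 to 1.14, the middle 90% of them lay between -0.51 and 0.46, and their spread, a robust SD taken from the median absolute deviation, was 0.24. Those past 1.5-fold therefore formed the thin ends of 1 continuous distribution, with no gap at the threshold. Just short of it were miR-205 at 0.58 and let-7d at -0.58.

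**Figure D1:**
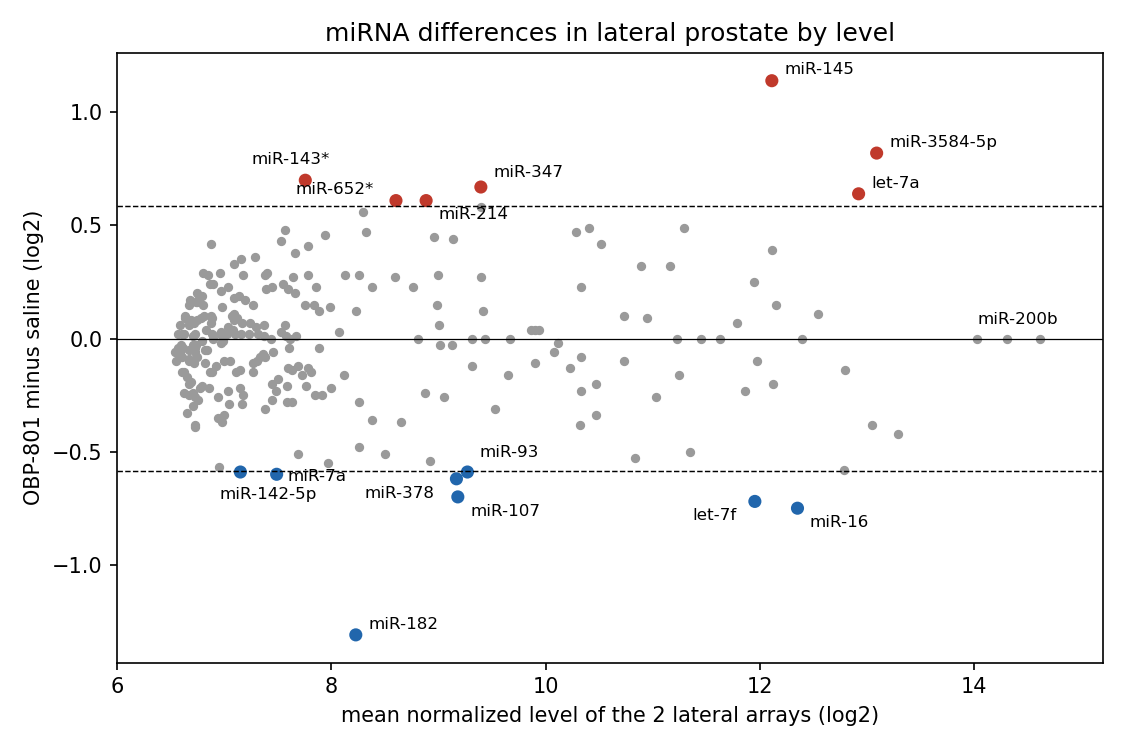
Difference between OBP-801 and saline in lateral prostate (vertical axis, log2) against the mean normalized level of the 2 arrays (horizontal axis, log2) for the 271 miRNAs detected on both. Dashed lines mark 1.5-fold, red points are the 7 miRNAs above it and blue points the 8 below it, and miR-145 (1.14) and miR-182 (-1.31) stand furthest from 0.

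The largest difference above 0 belonged to miR-145, a miRNA that promotes the contractile state of smooth muscle in mammals. The spot signal of miR-145 (MIMAT0000851) was 8084 after OBP-801 and 2821 after saline, a signal ratio of 2.87, and its normalized difference was 1.14, or 2.21-fold. The lateral OBP-801 array was the outlying value of the 4 arrays, since the ventral arrays gave 3148 after OBP-801 and 2888 after saline. In RefSeq the mature sequence lies at chr18:57370033-57370055 on the minus strand of GRCr8, within the span of the long non-coding RNA gene Carmn. The same gene spans miR-143, which lies less than 10 kb away on the same strand.

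The other mature miRNAs of this cluster differed less than miR-145. The minor arm miR-143* (MIMAT0017129, chr18:57371408-57371428, minus strand) had a signal of 354 after OBP-801 and 196.5 after saline, a difference of 0.70. The major arm miR-143 was far brighter, with 7378 after OBP-801 and 5499.8 after saline. Its difference was 0.00 because it held the same rank on both lateral arrays, and quantile normalization gives equal ranks the same value. The minor arm miR-145* had 178 after OBP-801 and 136.0 after saline, with a difference of 0.24. Thus all 4 products of the cluster had a higher spot signal after OBP-801. Relative to the other miRNAs of the array, 3 were above 0 and miR-143 was tied in rank, with a median of 0.47. The gap between miR-145 and miR-143 was 1.14 in lateral and -0.48 in ventral prostate. Over 13 alternative ways of processing the arrays the lateral gap kept between 1.10 and 1.35. Alternatives that change only the detection filter cannot move it, and those that differ by a constant per array give the same gap.

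A second pair of stromal miRNAs, miR-199a and miR-214, is transcribed in fibroblasts and other mesenchymal cells. The signal of miR-214 (MIMAT0000885) was 698 after OBP-801 and 431 after saline, a difference of 0.61. Its neighbours miR-199a-3p, at 955 and 612, and miR-199a-5p, at 616 and 444, had differences of 0.27 and 0.23. All 3 detected members of this cluster, which lies on chromosome 13 within the span of Dnm3, were above 0. RefSeq places miR-214 at chr13:77121713-77121733 on the plus strand.

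Taken as a list, the markers of smooth muscle and fibroblasts had 7 of 8 probes detected on both lateral arrays. Of these 7, 6 were above 0, 0 were below 0 and 1, miR-143, was at 0 by a tie of ranks. Of the 7, 3 were at least 1.5-fold higher, against 2.58% of all miRNAs. The median difference of the 7 was 0.27, against 0.00 over all 271 miRNAs. It stayed between 0.24 and 0.65 relative to all miRNAs over the alternatives. Positive values were not particular to lateral prostate. In ventral prostate the differences were 0.57 for miR-199a-3p, 0.48 for miR-199a-5p, 0.44 for miR-145* and 0.31 for miR-214. Those of miR-143 and miR-143* were 0.16 and 0.13 there, and that of miR-145 was -0.32. The summed signal of the 8 probes was 18376 after OBP-801 and 10241 after saline, a ratio of 1.79. Most of that rise came from miR-145 alone, at 8084 after OBP-801 and 2821 after saline. The ratio for the sum of all 679 probes was 1.21. The endothelial markers, both arms of miR-126, had differences of 0.42 for miR-126 (2258 after OBP-801, 1381 after saline) and 0.09 for miR-126*. The only detected erythroid marker, miR-451, stood at 438 after OBP-801 and 292 after saline, a difference of 0.56. It marks red blood cells, and the part of blood or stroma in these differences was not tested.

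Epithelial miRNAs were the brightest on both arrays. The brightest, miR-200b, which restrains epithelial-mesenchymal transition by repressing Zeb1 and Zeb2, had a signal of 38562 after OBP-801 and 24427 after saline. Its cluster neighbour miR-200a had 24885 after OBP-801 and 23839 after saline. Both had a normalized difference of 0.00, because they held the first and second rank on either array and quantile normalization gives equal ranks the same value. The difference of miR-200b was 0.66 with no normalization, 0.60 with scaling on the spike controls, 0.44 with median centring and 0.48 in the authors' deposited value table. Relative to the median of all miRNAs under the same setting, it reached at most 0.48, so the rank-based value does not settle its level after OBP-801.

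The largest difference below 0 was that of miR-182 (MIMAT0005300), a miRNA of epithelial and sensory cells, clustered with miR-183 and miR-96, that represses FOXO factors in human cells. Its signal was 260.4 after OBP-801 and 479 after saline, a difference of -1.31, or 2.47-fold lower. The ventral arrays gave 429 after OBP-801 and 496.5 after saline, so that the lateral OBP-801 array again held the outlying value. The mature sequence lies at chr4:59752249-59752273 on the minus strand. Its cluster neighbours differed little in normalized value, with miR-183 at 139.8 after OBP-801 and 138.4 after saline (-0.19) and miR-96 at 646 and 597 (-0.03). The signals of miR-183 lay close to the detection limits of 129.1 and 124.6, where the offset shrinks differences. The value of miR-183 therefore does not show that it was unchanged. The gap between miR-182 and miR-96 was -1.27, and it ranged from -1.72 to -1.11 over 12 alternatives, not all of which are separate checks.

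Of the 19 probes for epithelial markers, 15 were detected on both arrays, with 4 above 0, 8 below 0 and 3 at 0 by ties of rank. A single one, miR-182, was at least 1.5-fold lower, against 2.95% of all miRNAs, and 0 were at least 1.5-fold higher, against 2.58%. The list's median was -0.03. The summed signal was 80010 after OBP-801 and 62338 after saline, a ratio of 1.28, close to that of all probes. On the higher side stood miR-205, typical of basal epithelial cells, with 1037.5 after OBP-801 and 587 after saline, a difference of 0.58. The minor arm miR-200b* had 434 after OBP-801 and 302 after saline, a difference of 0.47, and on the lower side miR-203, a miRNA of differentiating squamous epithelium, stood at 235 and 245, a difference of -0.28. Stromal and epithelial markers thus differed in their medians, 0.27 and -0.03, and how far the cell makeup of the samples set this was not tested.

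In the main setting no member of the miR-200 family passed 1.5-fold, against 5.54% of all miRNAs. With 8 probes detected, such a count cannot tell the family from all miRNAs. The 3 members tied in rank, miR-200a, miR-200b and miR-429, could not pass. With no normalization (0.66) and with spike scaling (0.60), miR-200b did pass. The family member miR-429, of the cluster of miR-200a and miR-200b on chromosome 5, had 3565.5 after OBP-801 and 2749.8 after saline. Its difference of 0.00 was again a tie of ranks. The pair on chromosome 4, miR-141 and miR-200c, had 2814 after OBP-801 and 2529.5 after saline (-0.16) and 5392 and 4624 (-0.20), and the minor arm miR-141* had 246 and 253 (-0.28). Over the 8 of 9 probes of the family detected on both arrays the median was 0.00, and for the 3 detected members of the cluster that holds miR-182 it was -0.19.

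**Figure D2:**
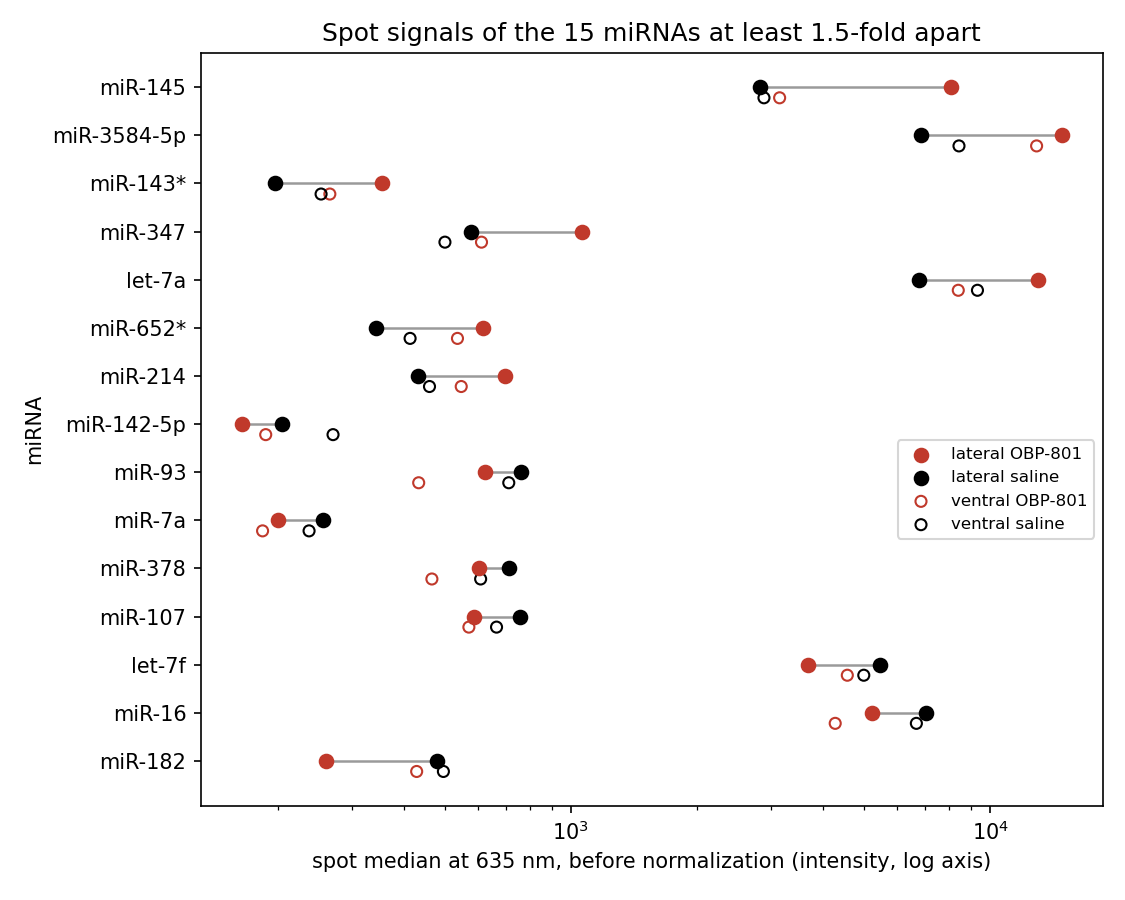
Spot medians before normalization (horizontal log axis, intensity) of the 15 miRNAs at least 1.5-fold apart in lateral prostate, with filled points for the lateral and open points for the ventral arrays, red for OBP-801 and black for saline. In miR-145 the lateral OBP-801 point (8084) lies apart from the other 3 arrays, which lie between 2821 and 3148, and in miR-182 it lies below them.

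The let-7 family, whose members share a seed and repress growth genes such as those of the Ras family, split between both ends of the distribution. The signal of let-7a (MIMAT0000774) was 13022 after OBP-801 and 6762 after saline, a difference of 0.64. That of let-7f (MIMAT0000778) was 3674 after OBP-801 and 5451 after saline, a difference of -0.72. They are encoded next to each other, at chr17:16320145-16320166 and chr17:16320508-16320529 on the plus strand, and each has another locus elsewhere in the genome. Within the mature sequence they differ by 1 base, G12A from let-7a to let-7f, counted from the 5′ end.

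The third miRNA of that cluster, let-7d, had 7685 after OBP-801 and 7369 after saline, and its normalized difference was -0.58. That value depended on the scaling, and it was 0.06 with no normalization, 0.00 with spike scaling, -0.16 with median centring and -0.12 in the authors' deposited value table. The sequence differs from let-7a by U1A and U16C. The gap between let-7a and let-7f was 1.36 and stayed between 1.35 and 1.54 over 13 alternatives, not all of which are separate checks. That between let-7a and let-7d was 1.22 and went down to 0.89. In ventral prostate these gaps were -0.31 and -0.29, with let-7a on the lower side. The bright let-7c, which differs from let-7a by A19G, had 12202 after OBP-801 and 10588 after saline, a difference of -0.42, but its sign relative to all miRNAs turned to 0.03 under no normalization, median centring and spike scaling. The same held for let-7b, at -0.14 and 0.03. Of the 17 probes for let-7 and miR-98, 10 were detected on both arrays, of which 2 were above 0 and 8 below 0, with a median of -0.13. Probes for sequences this alike can share signal, and how far they did was not tested.

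Members of the miR-15/16 family repress cyclins and other cell cycle genes in mammalian cells. The signal of miR-16 (MIMAT0000785) was 5227 after OBP-801 and 7033 after saline, a difference of -0.75, and it was lower in ventral prostate as well, at 4271.5 after OBP-801 and 6671 after saline. Its mature sequence lies at chr2:155555343-155555364 on the plus strand within the span of Smc4. The partner in that cluster, miR-15b, had 1977 after OBP-801 and 2343 after saline, a difference of -0.53.

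The same seed behaved otherwise in the cluster on chromosome 10. There miR-195, which departs from miR-16 by G10A and U11G and is 21 bases long against 22, had 1731 after OBP-801 and 1349.6 after saline, a difference of 0.23. Its neighbour miR-497 had a difference of 0.00, again a tie of ranks. Thus the miRNAs with the seed AGCAGCA ranged from -0.75 to 0.23, with 3 of 5 below 0.

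Members of the miR-17-92 cluster and of its paralogous clusters, which promote proliferation, lay mostly below 0. The member furthest down, miR-93 (MIMAT0000817, chr12:22156894-22156916, minus strand, within the span of Mcm7), had 623 after OBP-801 and 759 after saline, a difference of -0.59. It passed 1.5-fold under 6 of 13 alternatives, some of which change only the detection filter and not the value. Next came miR-20b-5p, with 464 after OBP-801 and 605 after saline (-0.54), and miR-19a, with 235 and 281 (-0.51).

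All 5 detected miRNAs with the seed AAAGUGC, that of miR-17, were below 0, between -0.59 and -0.23. They were below 0 in ventral prostate too, from -0.85 for miR-106b and -0.75 for miR-93 to -0.38 for miR-20a. All 7 detected members of the cluster on chromosome 15, from -0.51 to -0.02, and all 5 of the miR-106b/25/93 cluster on chromosome 12, from -0.59 to -0.13, were below 0. The paralogous cluster on the X chromosome had 4 members below 0 and 1 above 0, from -0.54 to 0.45. Of these, miR-19b, miR-92a and miR-17-5p are the same probes as those counted on chromosome 15. The members particular to the X chromosome, miR-20b-5p (-0.54) and miR-92a-2* (0.45), lay on opposite sides of 0. Over the whole list, 16 of 27 probes were detected on both arrays, 13 were below 0 and 3 above 0, and 1 was at least 1.5-fold lower, against 2.95% of all miRNAs. The median was -0.24, and relative to all miRNAs it ranged from -0.45 to -0.15 over the alternatives. The 3 members above 0 were all products of miR-92 precursors, namely miR-92a-2* (697 after OBP-801, 445 after saline, 0.45), miR-92b* (7086 and 4129, 0.39) and miR-92b (0.08). Past 1.2-fold were 6 members on the lower side, against 14.8% of all miRNAs, and 2 on the higher side, against 15.1%.

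**Figure D3:**
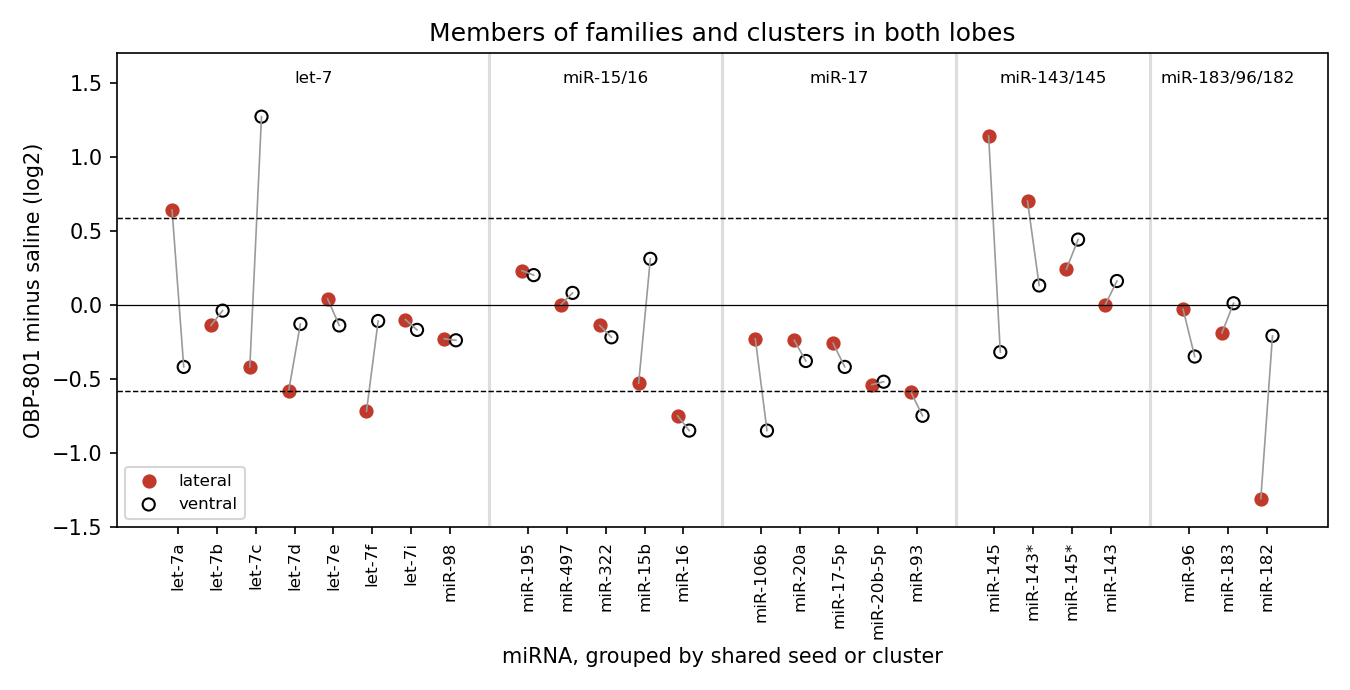
Differences between OBP-801 and saline (vertical axis, log2) in lateral (filled) and ventral (open) prostate for detected members of 3 seed families and 2 clusters. In lateral prostate let-7a (0.64) and let-7f (-0.72) lie on opposite sides of 0, as do miR-195 (0.23) and miR-16 (-0.75), while the 5 miRNAs with the miR-17 seed all lie below 0.

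The remaining miRNAs lower by at least 1.5-fold came from unrelated genes. The signal of miR-107 (chr1:241750431-241750453, minus strand), encoded in the pantothenate kinase gene Pank1 and linked to lipid metabolism, was 587 after OBP-801 and 755 after saline, a difference of -0.70. Its near copy miR-103, which differs from it at the second base from the end (G22C from miR-103 to miR-107), had 959 after OBP-801 and 869 after saline, a difference of -0.16. The gap between them was -0.53 in lateral and 0.04 in ventral prostate.

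Encoded in Ppargc1b and linked to mitochondrial metabolism, miR-378 (MIMAT0003379) had 603 after OBP-801 and 712 after saline, a difference of -0.62. The signal of miR-7a, a repressor of growth factor signalling with 1 of its loci at chr1:142215818-142215840 on the plus strand and another within the span of Hnrnpk on chromosome 17, was 199.9 after OBP-801 and 256 after saline, a difference of -0.60. The leukocyte miRNA miR-142-5p (chr10:73055119-73055139, plus strand) had 164 after OBP-801 and 205 after saline, a difference of -0.59. The signals of miR-7a and miR-142-5p were less than 2 times the detection limit after OBP-801. Each passed 1.5-fold under 8 of 12 alternatives, some of which change only the detection filter and not the value.

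No detected leukocyte marker lay above 0. Of 10 probes 7 were detected, 6 were below 0 and 1 was at 0 by a tie of ranks, and the median was -0.17. Besides miR-142-5p, miR-146a, which is induced by inflammatory signalling, had 389 after OBP-801 and 424 after saline, a difference of -0.36. The summed signals were 1981 after OBP-801 and 1975 after saline, a ratio of 1.00. These sums include the blank level, which is a large share of the signal of dim probes. The ratio therefore cannot be set against the 1.21 of all probes, a sum carried by bright ones. The liver markers, detected on neither array, had a ratio of 1.05.

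The remaining miRNAs higher by at least 1.5-fold have less familiar roles. The signal of miR-3584-5p (MIMAT0017875) was 14805 after OBP-801 and 6856 after saline, a difference of 0.82, and it was among the brightest probes of the array. In ventral prostate it had 12912 after OBP-801 and 8429.9 after saline, a difference of 0.79. With 18 bases it was the shortest of the called miRNAs and, with 72.2% G and C, the richest in these bases. Its sequence lies at chr1:256727582-256727599 on the minus strand within the span of Itprip.

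The signal of miR-347 (MIMAT0000598) was 1063 after OBP-801 and 579 after saline, a difference of 0.67. That of miR-652*, the minor arm of a precursor in Tmem164 on the X chromosome (chrX:111140088-111140110, plus strand), was 617 after OBP-801 and 343 after saline, a difference of 0.61. The other arm, miR-652, had 313.5 after OBP-801 and 257.5 after saline, a difference of 0.12. Of the 7 higher miRNAs, 2 were star arms, miR-143* and miR-652*, and of the 8 lower miRNAs none was, where 72 of all 271 miRNAs were star arms.

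Among the next largest differences above 0, miR-211* had 3621 after OBP-801 and 2263 after saline (0.49), miR-100 had 2223 and 1330.0 (0.49), and miR-874* had 291 and 189.6 (0.48). Those next below 0, after let-7d, were miR-500, with 146 and 181 (-0.57), and miR-185, with 277 and 334 (-0.55). None of these passed 1.5-fold.

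The miRNAs known as androgen-responsive in human prostate cancer cells had 7 of 11 probes detected, with 6 below 0, 1 level and a median of -0.26. The largest difference was that of miR-125b-5p, with 2746 after OBP-801 and 3009.5 after saline (-0.50), and 0 passed 1.5-fold, against 5.54% of all miRNAs. Also in this list, miR-21, the third brightest miRNA of the OBP-801 array, had 18715.5 after OBP-801 and 18777 after saline and a rank-tied difference of 0.00. Over the alternatives its value relative to all miRNAs lay between -0.33 and 0.00.

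MicroRNAs that repress histone deacetylases, the targets of the drug, were not higher as a group. Of 15 probes, 8 were detected on both arrays, with 3 above 0, 5 below 0 and a median of -0.18. The repressor of HDAC1 known from human prostate cells, miR-449a, was detected on neither array. Of miR-140, a repressor of HDAC4 in mouse cartilage, the minor arm miR-140* had 419 after OBP-801 and 466 after saline (-0.37) and the major arm 339 and 279 (0.14). Repressors of HDAC4 in muscle, miR-206, at 148.0 after OBP-801 and 148.8 after saline, and miR-1, at 200.3 and 192.8, had differences of -0.21 and -0.15. The p53 target miR-34a had 213.5 after OBP-801 and 216 after saline, a difference of -0.27.

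**Figure D4:**
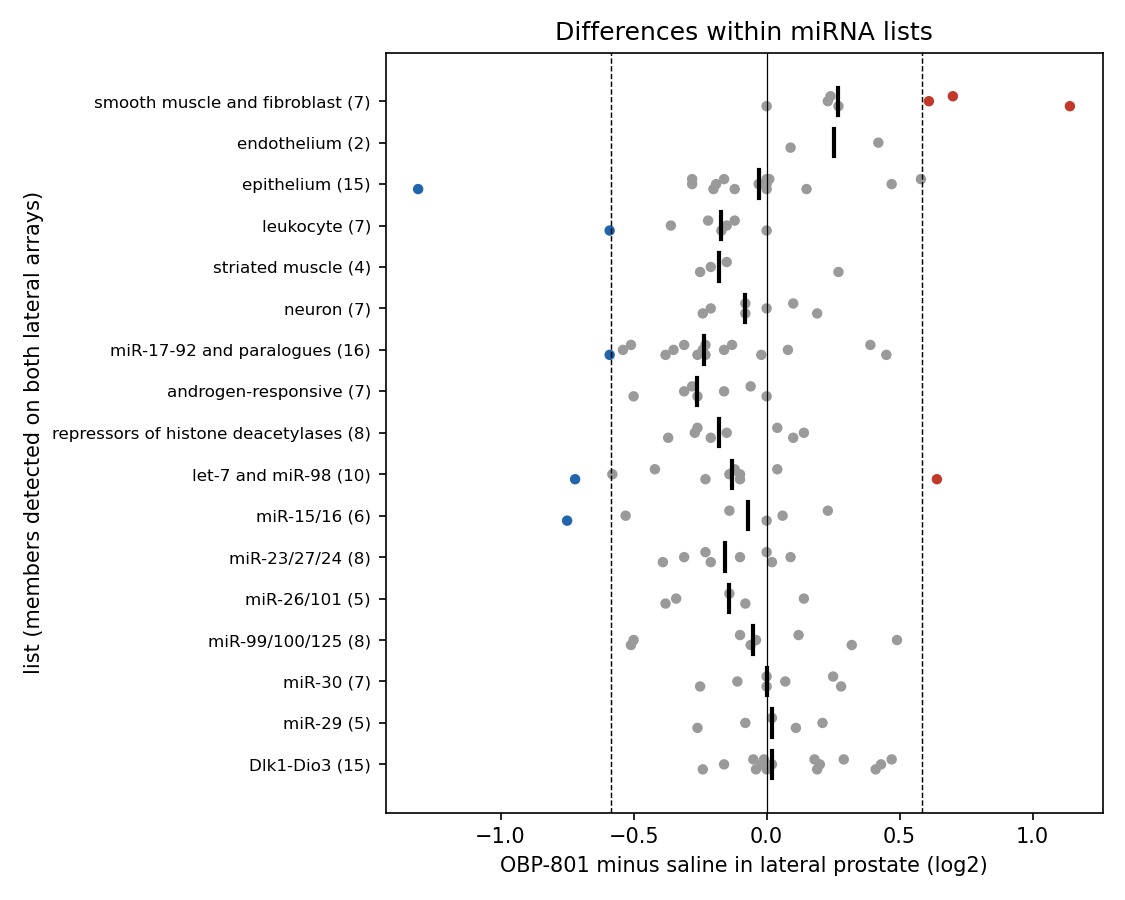
Differences between OBP-801 and saline in lateral prostate (horizontal axis, log2) of the detected members of 17 miRNA lists, with the number detected in brackets, the median as a black bar and 1.5-fold as dashed lines. Medians ran from 0.27 for smooth muscle and fibroblast markers to -0.26 for androgen-responsive miRNAs, and most lists straddle 0.

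No member of the remaining families passed 1.5-fold, against 5.54% of all miRNAs. Medians were -0.14 for the miR-26 and miR-101 families (5 of 8 probes), -0.16 for miR-23, miR-27 and miR-24 (8 of 11), -0.16 for miR-181 (4 of 10) and -0.24 for miR-221 and miR-222 (2 of 4). They were 0.00 for miR-30 (7 of 11), for miR-130 and miR-301 (3 of 8) and for the Hox cluster miRNAs (6 of 11), 0.02 for miR-29 (5 of 7) and 0.06 for p53-linked miRNAs (4 of 15). The sign of the miR-29 median turned in 5 of the alternatives, down to -0.08. In the family formed by miR-99, miR-100 and miR-125 the median was -0.05 over 8 of 11 probes, but members ran from -0.51 for miR-125a-3p to 0.49 for miR-100, and the sign of its median turned in 2 alternatives. In the imprinted Dlk1-Dio3 region, 15 of 85 probes were detected, with a median of 0.02, led by miR-494, with 1820.2 after OBP-801 and 1251 after saline (0.47).

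In the miR-29 family, which represses collagens and other matrix genes, miR-29a had 7822 after OBP-801 and 6086 after saline (0.11), miR-29b had 2559.5 and 2493 (-0.26) and miR-29c 1578 and 1435 (-0.08). In the miR-30 family, expressed widely in epithelia, miR-30b-5p had 5596 after OBP-801 and 4115 after saline (0.25). The minor arm miR-30e* had 395 after OBP-801 and 290.1 after saline, a difference of 0.28, while miR-30e had 1106 and 1108 (-0.11).

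Of miR-26a, a repressor of the methyltransferase Ezh2, the signal was 10374 after OBP-801 and 8497 after saline. Its difference of -0.38 turned to 0.11 relative to all miRNAs under no normalization, median centring and spike scaling. The dimmer miR-26b, with the same seed, had 1604 after OBP-801 and 1641 after saline, a difference of -0.34. Among miRNAs of the Hox clusters, miR-10a-5p had 1304 after OBP-801 and 1587 after saline (-0.38) and miR-615 had 663 and 477 (0.28). The median was 0.17 over the 3 probes of miR-320 and miR-484, which are made without the Drosha enzyme in mice, and miR-320* had 188.9 after OBP-801 and 131.8 after saline (0.42). Among the 240 probes that name a single star arm, 71 were detected, 39 were above 0 and 30 below 0, and the median was 0.02. Of these 71, 2 were at least 1.5-fold higher, against 2.58% of all miRNAs, and 0 lower, against 2.95%.

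Some markers of other tissues were detected. The liver miRNA miR-122 and its minor arm were detected on neither array. The striated muscle markers had 4 of 8 probes detected, the brightest being miR-133b with 523 after OBP-801 and 375 after saline (0.27), and their median was -0.18. Neuronal markers had 7 of 15 detected, with a median of -0.08 and a largest difference of -0.24, for miR-138. The brightest of them was the minor arm miR-128-2*, with 571.9 after OBP-801 and 464.2 after saline and a rank-tied difference of 0.00. The sign of the neuronal median turned to 0.07 with no filter on dim probes.

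Detection on a single lateral array was seen for 58 miRNAs after OBP-801 and for 19 after saline, and 331 were detected on neither array. All of these one-sided detections lay close to the limits. Signals of the 58 ranged from 129.1 to 179.8, with a median of 137.3, and those of the 19 from 124.9 to 155.6. For such a miRNA only a bound is available, which sets the normalized value of the brighter array against the higher of 2 values of the dimmer one, its lowest detected level and the miRNA's own. The highest bound in favour of OBP-801 belonged to miR-874, at least 1.37-fold higher with 179.8 after OBP-801 and 124.5 after saline. In the other direction it belonged to miR-301b, at least 1.44-fold lower with 126.7 and 155.6. None reached 1.5-fold, and for 26 of the 58 the bound was no difference at all.

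The counts of one-sided detections depended on how the limits were set. When the lateral arrays were set to equal medians with a common limit, 31 miRNAs were detected only after OBP-801 and 34 only after saline. At the limit itself, miR-3596d, at 129.1 after OBP-801, just counted as detected, and miR-134, at 128.8, just did not. On the saline array the nearest were miR-324-3p at 124.7, inside, and miR-874 at 124.5, outside. Membership at this edge thus turned on differences of less than 1 intensity unit.

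Both arms of 61 precursors were detected on both lateral arrays. In 34 of these the arms had the same sign, and their differences were a median of 0.22 apart. The arms differed by at least 1.5-fold in 3 precursors, those of miR-145, miR-143 and miR-125a. In the last, miR-125a-5p had 911.5 after OBP-801 and 672 after saline (0.12) and miR-125a-3p 392.1 and 460.6 (-0.51). The minor arm miR-145* was dim, at 178 after OBP-801 and 136.0 after saline, and the offset shrinks the differences of dim miRNAs. In 38 genomic clusters at least 2 miRNAs were detected, with hairpins within 10 kb on the same strand counted as a cluster. All members lay on the same side of 0 in 17 of these clusters, and members were more than 1.5-fold apart in 9. A miRNA with loci in several clusters was counted in each of them, so the clusters are not separate from each other. By seed, 24 groups had at least 2 detected members, 65 miRNAs in all, and in 12 of them all members lay on the same side of 0.

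The size and the direction of the differences moved with properties of the probes and of the miRNAs. Split by mean level into 3 classes of equal size, the dimmest, middle and brightest miRNAs had spreads of 0.17, 0.25 and 0.38, and 0, 3 and 12 miRNAs past 1.5-fold. The offset added before the log scale shrinks differences of dim miRNAs, so a lack of calls among them does not show that they were alike. By base composition, the 25 miRNAs with less than 40% G and C had 5 above 0 and 19 below 0, with a median of -0.15, and those with 50% or more had 57 above and 42 below, with a median of 0.03. Across the 191 miRNAs with a sequence, difference and G and C content correlated with Pearson's r = 0.33 and Spearman's rho = 0.33. The same held in ventral prostate, with r = 0.34 and rho = 0.38 over 171 miRNAs. The miRNAs of an array share its labelling and hybridization and are not independent.

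**Figure D5:**
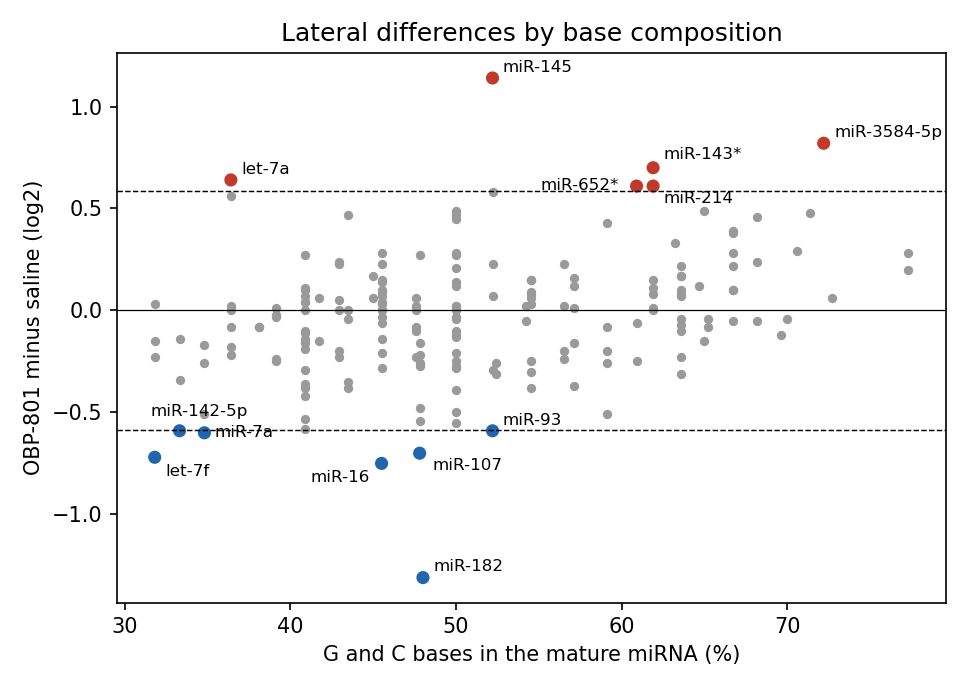
Difference between OBP-801 and saline in lateral prostate (vertical axis, log2) against the share of G and C bases in the mature miRNA (horizontal axis, %) for the 191 detected miRNAs with a RefSeq sequence. Red and blue points are those past 1.5-fold. Of the red points 5 lie at 52.2% or more and let-7a at 36.4%, and of the blue points 6 lie below 50%.

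The called miRNAs followed this tilt in part. Of those higher after OBP-801, miR-3584-5p had 72.2% G and C, miR-143* and miR-214 had 61.9%, miR-652* 60.9% and miR-145 52.2%, while let-7a had 36.4%. Of those lower, miR-93 had 52.2% and the rest ran from 31.8% for let-7f to 48.0% for miR-182. How far base composition took part in these differences was not tested.

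The lateral differences were set beside those of the ventral prostate, whose arrays are other samples of the same study, with 8 miRNAs at least 1.5-fold higher (3.08%) and 10 at least 1.5-fold lower (3.85%) of 260 detected on both ventral arrays. Of the 7 miRNAs higher in lateral prostate, 5 were above 0 in ventral prostate as well and 2 passed 1.5-fold there, miR-3584-5p and miR-652*. The 2 that lay below 0 in ventral prostate were miR-145 (-0.32) and let-7a (-0.42). All 8 lower miRNAs were below 0 in ventral prostate, and 3 passed 1.5-fold there, miR-16 (-0.85), miR-93 (-0.75) and miR-142-5p (-0.59). Median differences of the 8 were -0.66 in lateral and -0.36 in ventral prostate, and those of the 7 higher ones 0.67 and 0.31. The share of all miRNAs with the same sign in both lobes is not given here, so these sign counts cannot be set against it. Both comparisons also share the slide positions of OBP-801 and saline. With 1 array in each group, differences between the lobes could not be tested.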

How the data were processed

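Per the labels' protocols, total RNA of each lobe was labelled with the red dye Hy5, and each sample has its own 1-colour array. Per the file headers, the deposited scanner files hold the median intensity of each spot in the red channel. Blank spots, which averaged 109.4 and 104.1 on the lateral arrays, showed that no background had been subtracted. They cannot show whether the values had been normalized. The maker of the array is not given in the sources used here. Intensity values in the authors' deposited table are a straight line of the spot median on each array (r = 1.0), with a median of 25.0, zero near the blank level and dim spots empty. The steps behind it are not stated.

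Spot medians were background-corrected with normexp (limma 3.58.1, R 4.3.3, offset 50, no local background), control spots were left out, values of the 4 arrays were quantile-normalized, and log2 was taken. The offset understates the change of dim miRNAs. The code was tested on simulated data in which the brightest miRNAs were left unchanged, so that test does not cover differences at the top of the range. With 1 array per group no test was made, and the number of arrays limits the precision. The members, the 29 lists (matched by mature name), the thresholds and the naming rule were chosen with earlier results of these data known. Named were all miRNAs past 1.5-fold, the 12 largest differences in each direction, the 10 brightest, the 5 highest bounds in each direction, arms, cluster neighbours and same-seed miRNAs of those past 1.5-fold, and up to 4 members of each list. The miRNAs at the detection limits were chosen after their values were seen. RefSeq (GRCr8) gave a mature sequence for 191 of the 271 miRNAs and a hairpin for 251. Differences were compared under 13 alternatives, some of which kept the values and changed only the detection filter, and detection was recomputed under 5. Subtraction of the local background was chosen after seeing the data.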

Additional observations from a re-analysis of the deposited data

Results flagged for a closer look

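Of the miRNAs past 1.5-fold in lateral prostate, 2 went the opposite way in ventral prostate. The smooth muscle miRNA miR-145 had a difference of 1.14 in lateral and -0.32 in ventral prostate, and let-7a, of the differentiation-associated let-7 family, had 0.64 in lateral and -0.42 in ventral prostate. For let-7a the saline arrays held both extremes of the normalized level, 12.6 in lateral and 13.5 in ventral prostate. The OBP-801 arrays lay between them, at 13.24 in lateral and 13.08 in ventral prostate. Each lobe has 1 array for OBP-801 and 1 for saline, so that the difference between the lobes was not tested.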

How the results depend on the processing

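All 15 miRNAs past 1.5-fold kept their sign under every alternative that gave them a value, and miR-145, miR-3584-5p and miR-347 also stayed past 1.5-fold under all 13, as did miR-143* and miR-182 under all 12 that gave a value. Least stable were miR-93 (6 of 13), miR-7a and miR-142-5p (8 of 12 each). Some alternatives, namely no filter, a limit 4 times higher and a limit from the negative controls, change only which miRNAs are compared. They reuse the main values, so a miRNA kept under them could not lose its sign or call. No normalization, median centring and spike scaling differ by a constant per array. They give the same values relative to all miRNAs and the same gaps between miRNAs, and are not separate checks of these. Against 7 miRNAs at least 1.5-fold higher and 8 lower, the counts were 25 and 1 with no normalization, 19 and 2 with scaling on the spike controls, 26 and 37 with the blank mean subtracted and no offset, 54 and 25 in the deposited value table, and 4 and 5 with a limit 4 times higher. The count of lower miRNAs was 5 with no background correction and 5 after removal of print block medians, and that of higher ones was 11 with an offset of 16 and 11 with no filter. No normalization and spike scaling shift the median of all miRNAs by 0.18 and 0.11, and the deposited table by 0.15. Against 1 at least 2-fold higher and 1 lower, the counts were 2 higher with no normalization or spike scaling, 3 higher and 7 lower with the blank mean subtracted, 9 and 7 in the deposited table, and 0 lower with the limit 4 times higher, which left out miR-182. Against 19 miRNAs detected only after saline, 11 were with a limit of 3 SD or from the negative controls, 31 with trimmed blanks, 32 in the deposited table and 34 with equal medians and a common limit, where 31 were detected only after OBP-801, against 58. With local background subtracted the counts were 6 higher and 7 lower. No paired analysis was possible because each group has 1 array.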
